A study of Mus musculus with 24 samples.

Results

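The 10 genes described here encode actin-like, actin-capping, cylicin and calicin proteins of the spermatid head. They were chosen by name, as *Actl7a*, *Actl7b*, *Actl9*, *Actrt1*, *Actrt2*, *Actrt3*, *Capza3*, *Cylc1*, *Cylc2* and *Ccin*. All 10 were among the 24456 genes listed in the count tables, and all 10 passed the filter on low counts that left 17170 genes for testing. The libraries came from whole testes of wild-type (WT) mice and of mice homozygous for a knockout allele of *Atad2* (KO), taken on postnatal days 20, 22, 24 and 26. The labels name testis as the source of every library, although their shared extraction text also speaks of purifying fractions of spermatogenic cells, and the libraries are taken here as whole testis, as the study's methods describe them. Days 20 and 22 have 4 libraries per genotype, and days 24 and 26 have 2. The KO allele carries a lacZ cassette spliced to exon 11, and a Cre recombinase driven by the ubiquitous CMV promoter removed the neo cassette and exon 12, so that every cell of the animal lacks a functional ATAD2, a chromatin regulator that couples an AAA+ ATPase to a bromodomain. The study asked how this loss changes transcription as post-meiotic cells first appear.

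The perinuclear theca is the cytoskeletal capsule around the nucleus of the sperm head. Its front part lies between the acrosome and the nuclear envelope and holds the acrosome in place, and its rear part, the calyx, covers the nucleus behind the acrosome. Round spermatids make its proteins while the acrosome forms. Actin itself is not its main component: the capsule is built largely from testis-specific relatives of actin, which sit with a testis-specific subunit of actin capping protein, the basic cylicins and the kelch protein calicin. A young testis fills with successive germ cell stages in a first wave, so in bulk RNA a spermatid gene rises as spermatids accumulate. In such samples fewer cells of a type and less RNA per cell cannot be told apart.

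By the GENCODE M21 models of mouse build mm10, 5 of the 10 genes lie on chromosome 4 and 2 on the X chromosome, and 6 have 1 exon in every transcript. *Actl7a* (chromosome 4 from 56743413 to 56744925, plus strand) and *Actl7b* (56740005 to 56741443, minus strand) point away from each other, with 1970 bases between their starts. *Actrt2* (154666433 to 154667867, minus strand), *Cylc2* (51216678 to 51230272, plus strand) and *Ccin* (43983483 to 43985423, plus strand) are also on chromosome 4. *Actl9* is on chromosome 17 from 33432896 to 33434268 on the plus strand, *Actrt3* on chromosome 3 (30597073 to 30599939, minus strand) and *Capza3* on chromosome 6 from 140041252 to 140042778 on the plus strand. The X-linked pair are *Actrt1* (46329007 to 46330345, plus strand) and *Cylc1* (111110418 to 111125854, plus strand). *Capza3* lies across from *Plcz1*, and *Actl7b* across from *Gm26657*, on the opposite strand, and the counting used the strand.

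RefSeq promoter windows, which run from 250 bases before to 50 after the start on GRCm38.p6 (the assembly called mm10), were found for 8 of the 10 genes, with none for *Capza3* and *Cylc2*. They were searched on both strands for TGACGTCA, the palindromic cyclic-AMP response element, and for TGATGTCA, a variant with 1 changed base. Factors of the CREM family, which act in spermatids, bind such elements. The 2 motifs cannot overlap at the same position. TGACGTCA occurred in 1 of the 8 windows (12.5%), that of *Ccin*, and in 1.79% of the 32851 windows of the same length over all genes. The variant was added after the windows had been seen, so the count with it was shaped by these windows: either motif occurred in 5 of the 8 (62.5%), and in 1760 of the 32851 (5.36%). The stretch upstream of the gene start that holds each match is shown 5′ to 3′ on the gene's own strand, because these genes rise together in the results that follow. The match is in capitals, and TGACATCA is TGATGTCA read from the other strand.
Ccin (chr4:43983414-43983482, plus strand): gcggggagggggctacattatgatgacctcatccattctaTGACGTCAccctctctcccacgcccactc
Actl7b (chr4:56741444-56741501, minus strand): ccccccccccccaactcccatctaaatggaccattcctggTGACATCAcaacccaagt
Actl7a (chr4:56743342-56743412, plus strand): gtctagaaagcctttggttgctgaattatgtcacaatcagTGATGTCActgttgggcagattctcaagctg
Actl9 (chr17:33432799-33432886, plus strand): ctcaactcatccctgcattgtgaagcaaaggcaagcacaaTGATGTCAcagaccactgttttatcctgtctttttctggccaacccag
Cylc1 (chrX:111110346-111110417, plus strand): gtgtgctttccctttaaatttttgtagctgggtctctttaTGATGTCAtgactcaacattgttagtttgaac
The matches end 43 bases before the RefSeq start of *Ccin*, 29 before that of *Actl7b*, 33 before that of *Actl7a*, 53 before that of *Actl9* and 25 before that of *Cylc1*. The 3 *Actrt* windows held neither motif. A match describes letters in these windows, and binding was not measured here.

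The sum of gene counts in a library lay between 10709667 and 19491935. Library names give genotype, day and replicate number. WT_d20_2 stood apart, with 13.7% of read pairs aligned to several places against 4.74% to 9.16% in the other libraries. *Atad2* itself was at 30.8 to 53.0 CPM (counts relative to the TMM-scaled size of the library) in the 12 KO libraries and at 76.1 to 171 CPM in the 12 WT libraries, so no library went against its label. Germ cell, Sertoli, Leydig and peritubular markers were detected in every group. Where no library of a group had over 3 counts of a gene, the gene is called at the floor there, and a fold against that group is given as a lower bound, set against 3 counts in its shallowest library (0.316 CPM in WT at day 20 and 0.251 CPM in WT at day 22). The floors cover counting error only. The study calls its replicates biological. The labels name no animals, and no pair of libraries of a group agreed within sampling noise (chi-square per gene of 5.07 to 129).

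The genes rose together over the wave in WT testes, but from different starting points. All 10 were higher at day 26 than at day 20 by edgeR's quasi-likelihood test at an adjusted p under 0.05, where 24.4% of all tested genes were called higher. The median log2 change of the 10 was 7.99, or 7.64 with the 3 genes at the floor set to their bounds, and the median over all tested genes was -0.04. *Actl9*, an actin-like protein of the subacrosomal layer that binds ACTL7A, changed least, by 2.52 ± 0.22 (log2, SE, adjusted p = 6.0e-08). *Capza3*, the testis-specific alpha subunit of actin capping protein, was higher by 8.85 ± 0.85 (adjusted p = 2.3e-07) and *Ccin*, which encodes calicin, by 8.74 ± 0.91 (adjusted p = 4.5e-07). *Actl7b* was higher by 3.88, *Actl7a* by 7.46, *Cylc1* by 7.83 and *Cylc2* by 8.16, with SEs of 0.37 to 0.98. The 3 *Actrt* genes were at the floor at day 20, and the lower bound on the fold was 45.8 for *Actrt1*, 368 for *Actrt2* and 71.8 for *Actrt3*. Over the same ages in WT, 6 of 6 round spermatid, 7 of 7 elongating spermatid, 4 of 6 pachytene and 5 of 5 Leydig markers were called higher. Of the spermatogonial markers 4 of 6 were called lower, as were 4 of 5 Sertoli and 2 of 4 peritubular markers. The part of these lists was not tested.

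Only *Actl9* and *Actl7b*, an actin-like protein of the spermatid cytoskeleton, were well detected in WT at day 20. The 4 WT libraries held 24.8, 15.1, 17.6 and 26.5 CPM of *Actl9*, which is 17.4% of its mean at day 26. *Actl7b* stood at 23.3, 6.53, 14.7 and 24.8 CPM, or 6.76% of its day 26 mean. WT_d20_2 was the lowest library for both, and without it the shares were 19.1% and 8.16%. The other 8 genes were each under 0.6% of their day 26 mean, or at most 0.624% without this library. *Actrt3*, an actin-related protein that binds profilin 3, had no count in any of the 4 libraries.

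By day 22 the WT testes separated these 8 genes into an earlier and a later set. *Actl7a* (the actin-like protein that anchors the acrosome), *Actrt1*, *Capza3*, *Cylc1* and *Cylc2* had reached 8.0% to 10.7% of their day 26 means. *Actrt2* and *Ccin* had reached 1.61% and 1.62%, and *Actrt3* 0.347%, which is at the floor. Between days 20 and 22, 8 of the 10 genes were called higher in WT (12.9% of all tested genes were), and *Ccin* (2.83 ± 1.08, log2, adjusted p = 0.073) and *Actrt3* were not called. Of the genes above the floor at day 20, those called rose by 0.57 (*Actl9*) to 5.2 (*Capza3*). Without WT_d20_2 the count was 6. Between days 22 and 24 *Actrt2* rose from a mean of 1.88 to 31.1 CPM (4.05 ± 0.72, log2, adjusted p = 0.0037), *Ccin* from 1.47 to 22.6 CPM (3.90 ± 0.71, adjusted p = 0.0039), and *Actrt3* by at least 9.27-fold (adjusted p = 0.024). *Actl7a* rose by 2.28 ± 0.60 over the same step (adjusted p = 0.028), and *Actrt1* (2.01 ± 0.49), *Capza3* (2.40 ± 0.59) and *Cylc2* (2.53 ± 0.67) were called as well. *Actl7b* (1.22 ± 0.36), *Actl9* (0.75 ± 0.22) and *Cylc1* (2.07 ± 0.61) missed the threshold, with adjusted p of 0.050 to 0.055. In all, 7 genes were called higher over this step in WT, where 5.88% of tested genes were, and leaving out 1 library gave 2 to 10. The count was 2 without WT_d22_2, WT_d22_4 or WT_d24_1 and 3 without WT_d22_3 or WT_d24_2. The low day 22 values that set *Actrt2*, *Ccin* and *Actrt3* apart are also the start of this step, and whether the steps differ between genes was not tested.

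**Figure D1:**
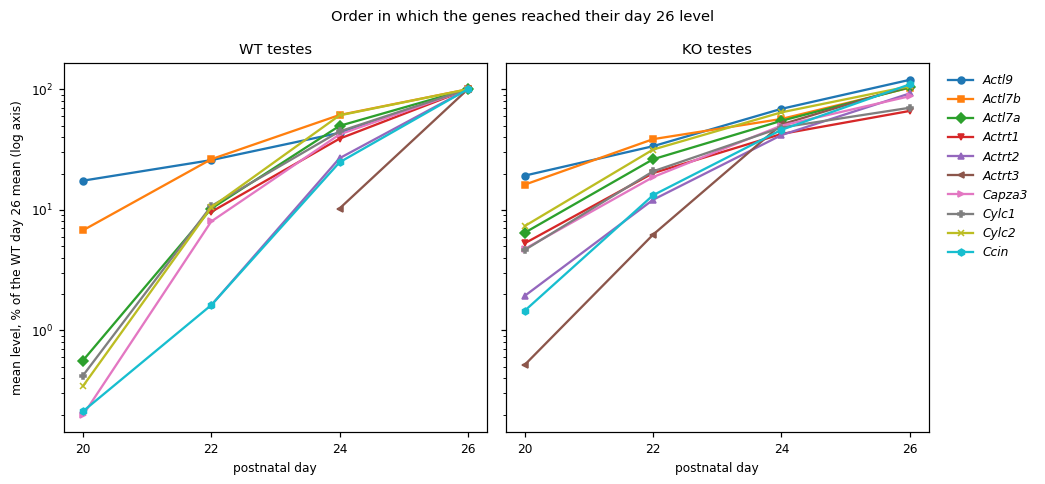
Mean level of each gene as a percentage of its own mean in WT at day 26 (log axis) against postnatal day, WT on the left and KO on the right, with groups at the floor of detection left out. In WT at day 20 *Actl9* and *Actl7b* stood at 17.4% and 6.76%, and at day 22 *Actrt2* and *Ccin* stood at 1.61% and 1.62%, below the other genes drawn for that day, while *Actrt3* was at the floor.

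Every gene was higher at day 26 than at day 24, without overlap, in both genotypes (as were 26.6% of tested genes in WT and 35.9% in KO), but edgeR called 0 of 10 in WT and 0 of 10 in KO (0.262% and 0.0116% of tested genes were called higher). At an unadjusted p under 0.05 there were 5 genes in WT and 1 in KO, against 1373 and 3459 of the 17170 tested genes. Leaving out 1 library gave 1 call in WT without WT_d20_2, WT_d20_3 or KO_d22_4, 2 in WT without KO_d22_1 or KO_d22_2, and 1 in KO without WT_d20_2. *Actrt3* went in WT from 1.80 and 2.85 CPM to 27.6 and 17.8 CPM (3.29 ± 0.88, log2, adjusted p = 0.15). *Actl9* came nearest to a call, from 54.1 and 50.6 CPM to 125 and 116 CPM (1.20 ± 0.27, adjusted p = 0.054). In WT *Ccin* (2.01), *Actrt2* (1.90) and *Actrt1* (1.36) also had an unadjusted p under 0.05, while *Actl7a*, *Actl7b*, *Capza3*, *Cylc1* and *Cylc2* differed by 0.71 to 1.25. In KO the 10 differed by 0.54 (*Cylc1*) to 1.25 (*Ccin*), with *Actl9* at 0.80 ± 0.26 (adjusted p = 0.13).

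Levels can be compared between genes only per length, as CPM per kilobase of exon. On this scale in WT at day 26, *Actl7b* was highest at 178 (163 and 194), followed by *Actl7a* at 92.7, *Actl9* at 87.7, *Actrt2* at 81.0 and *Capza3* at 75.7. *Ccin* followed at 46.9, *Cylc1* at 30.9, *Cylc2* at 20.7, *Actrt3* at 11.6 and *Actrt1* at 10.8. The ranges of the 2 libraries overlapped between *Actl9* and *Actrt2*, between *Actrt2* and *Capza3*, and between *Actrt3* and *Actrt1*, and the other neighbours in this order did not overlap. The 3 actin-like genes and the actin-related *Actrt2* thus stood above the calyx genes, and *Actrt1* and *Actrt3* stood lowest.

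KO testes carried more RNA of most of these genes at day 20. By edgeR 7 of the 10 were higher in KO (*Actl7a*, *Actl7b*, *Actrt1*, *Actrt2*, *Capza3*, *Cylc1* and *Cylc2*) and none was lower, and 2.98% of all tested genes were called higher. The median log2 fold change of the 10 was 3.46 (2.83 over 9 genes with those at the floor set to their bounds) against 0.00 over all tested genes. In 5 genes every KO library was above every WT library, which held for 3.03% of tested genes.

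**Figure D2:**
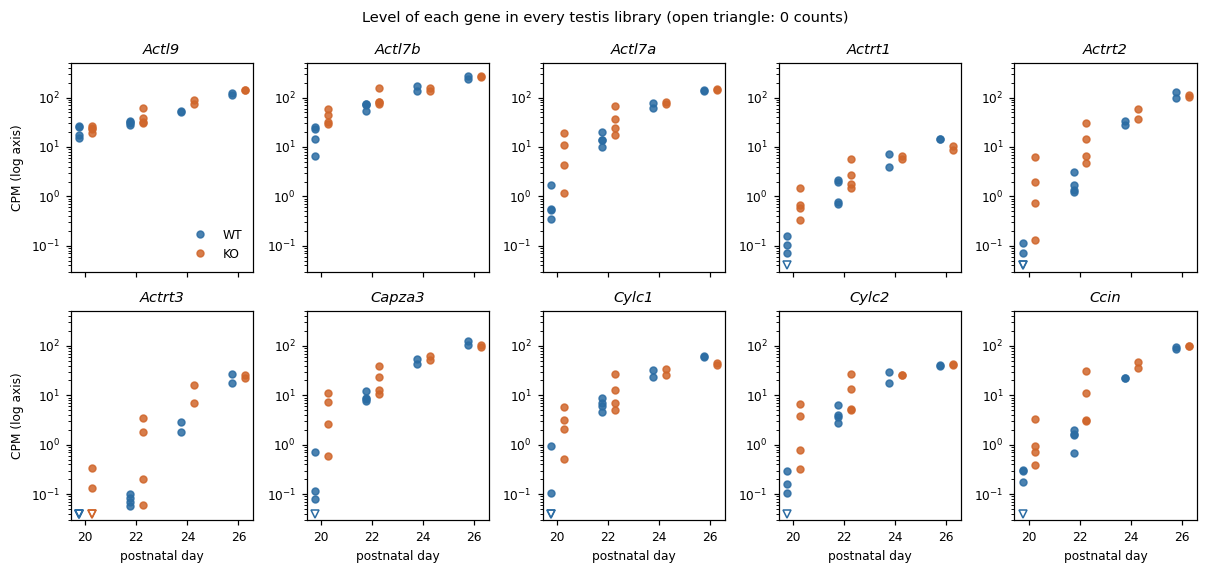
Level of each gene in every library as CPM on a log axis against postnatal day, WT in blue and KO in orange, with open triangles at the foot for libraries with 0 counts. At day 20 most genes were higher in the KO libraries, which spread widely, and at day 26 the KO libraries lay below the WT libraries for *Actrt1*, *Cylc1* and *Capza3*.

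Of the 3 *Actl* genes, 2 were called. *Actl7a* stood at 0.550, 0.527, 0.347 and 1.73 CPM in WT and at 4.35, 1.18, 11.2 and 19.5 CPM in KO, a log2 fold change of 3.51 ± 0.73 (adjusted p = 0.012). KO_d20_2 was the lowest KO library and lay within the WT range. *Actl7b*, transcribed away from *Actl7a*, stood at 32.3, 29.0, 44.8 and 59.9 CPM in KO, all above the 6.53 to 24.8 CPM of WT (1.25 ± 0.32, adjusted p = 0.033). *Actl9*, the member already best expressed in WT at this age, did not pass the test: it stood at 26.0, 19.6, 23.0 and 23.9 CPM in KO, within the WT range of 15.1 to 26.5 CPM (0.14 ± 0.19, adjusted p = 0.86).

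*Actrt1*, *Actrt2* and *Actrt3* encode actin-related proteins of the testis. *Actrt1* had 2, 1, 0 and 1 counts in the WT libraries and 8, 5, 10 and 22 counts in the KO libraries, a mean at least 2.42-fold higher in KO (adjusted p = 0.034). *Actrt2* had 0, 0, 2 and 1 counts in WT and 10, 2, 30 and 91 counts in KO, at least 7.12-fold higher on average (adjusted p = 0.046). On the CPM scale every KO library exceeded every WT library for both genes, but KO_d20_2 with 2 counts of *Actrt2* was itself at the floor. The call of *Actrt2* was lost in 18 of the 24 fits that left out 1 library and that of *Actrt1* in 6, and with no low-count filter *Actrt2* and *Cylc1* lost theirs, leaving 5 called. *Actrt3* had no count in WT and 0, 0, 2 and 5 counts in KO, too few for a fold or a call (adjusted p = 0.66).

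The capping and calyx genes showed the same uneven KO libraries. *Capza3* had 1, 0, 2 and 10 counts in WT and 37, 9, 113 and 165 counts in KO (4.45 ± 0.88, log2, adjusted p = 0.010), with KO_d20_2 below WT_d20_4. *Cylc1* and *Cylc2* encode the cylicins, basic proteins that form much of the calyx. *Cylc1* had 0, 1, 0 and 13 counts in WT and 29, 8, 48 and 84 counts in KO (3.41 ± 0.89, adjusted p = 0.040). Leaving out 1 library gave 2.84 to 6.42 for *Cylc1*, the highest without WT_d20_4, and 15 of the 24 such fits ended its call. *Cylc2* had 2, 1, 0 and 4 counts in WT and 11, 5, 59 and 99 counts in KO (4.39 ± 1.07, adjusted p = 0.027), without overlap between the groups. *Ccin* had 4, 0, 3 and 4 counts in WT and 13, 6, 11 and 48 counts in KO, again without overlap, but was not called (2.64 ± 1.11, adjusted p = 0.30). With DESeq2 it was (adjusted p = 0.019). Over the same fits *Actl7a* ranged from 2.81 to 4.30, *Actl7b* from 0.982 to 1.49, *Capza3* from 3.84 to 6.05 and *Cylc2* from 3.60 to 5.14, and the calls were lost in 3, 5, 1 and 5 of the 24.

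Markers of round spermatids moved with this result. The summed level of 6 round spermatid genes (*Acrv1*, *Izumo1*, *Catsper3*, *Catsper4*, *Tssk1* and *Spaca7*) was 1.79 to 8.50 CPM in WT and 7.78 to 77.1 CPM in KO at day 20, and none of the 6 was at 0 in all libraries of a group. All 6 were called higher in KO. By their score KO_d20_4 was the highest KO library, KO_d20_2 the lowest, and WT_d20_4 the highest WT library. KO_d20_4 was also the highest KO library for every one of the 10 genes but *Actl9*, and KO_d20_2 the lowest for every one but *Actrt3*, for which it shared a count of 0. Markers of elongating spermatids summed to 1.16 to 7.85 CPM in WT and 4.58 to 94.0 CPM in KO (3 of 7 called higher), and pachytene markers to 2329 to 3579 CPM and 3273 to 3848 CPM. Leydig cell markers moved too: 3 of 5 had an unadjusted p under 0.05 and none was called, with a median log2 fold change of 1.07 and scores of -1.27 to -0.93 in WT and -1.46 to 0.28 in KO. KO_d20_4 was again the highest KO library and KO_d20_2 the lowest. Spermatogonial markers went the other way, with a median of -0.215, 2 of 6 at an unadjusted p under 0.05 and none called. Their scores were 0.25 to 0.50 in WT and 0.06 to 0.42 in KO. The part of the Leydig and spermatogonial lists in the result was not tested. With a stage score (round spermatid minus pachytene marker score) as a covariate, 0 of the 10 genes were called at day 20 and *Actl7a* went to 0.16 (adjusted p = 0.99). Of the 17170 tested genes that fit called 0 higher and 4 lower. The stage score ran from -3.90 to -2.57 in WT and from -2.80 to 0.44 in KO at day 20, so this fit separates stage from genotype poorly. The part of stage in the result was not tested. Leaving out 1 library moved the count of 7 to 0 without WT_d20_3, to 1 without WT_d20_2 or KO_d20_4, and to 2 without WT_d20_1 or KO_d20_3. A fit of the day 20 libraries alone called 0 of the 5 genes it kept, and of all its 15265 genes 0 higher and 5 lower. The log2 fold changes in that fit were 3.51 for *Actl7a*, 1.25 for *Actl7b*, 4.46 for *Capza3* and 3.40 for *Cylc1*, close to those in the fit of all libraries, with adjusted p of 0.16 to 0.30.

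**Figure D3:**
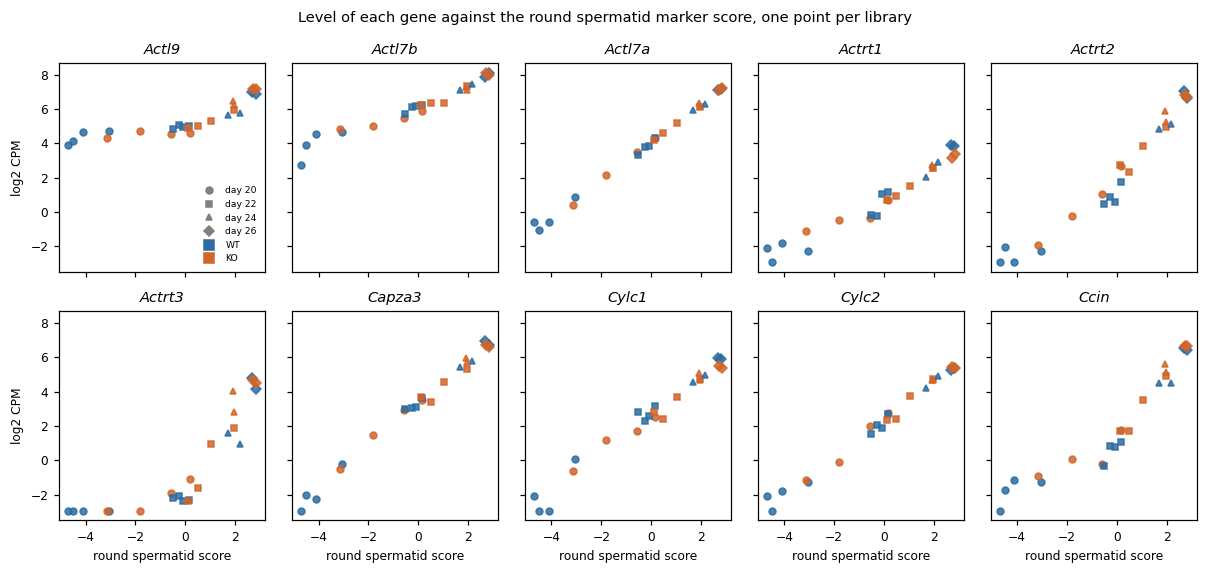
Log2 CPM (with a prior count of 2) of each gene in the 24 libraries against the round spermatid marker score of the library, the mean of centred log2 CPM over 6 marker genes, with colour for genotype and symbol for day. At day 20 the scores ran from -3.15 to 0.17 in KO and from -4.69 to -3.05 in WT. KO_d20_2 lay just to the left of WT_d20_4, and the other KO libraries lay to the right of all WT libraries.

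At day 22 all 10 genes had positive log2 fold changes of KO against WT. An unadjusted p under 0.05 was found for 7 of them, and for 2505 of the 17170 tested genes. *Actrt2* and *Ccin* were called higher in KO (2 of 10, with 1.26% of all tested genes called higher), and the other 8 did not pass. Both belong to the later set, which was defined on the same WT libraries of day 22, so the match of the sets is not independent evidence. The median of the 10 was 1.29 against 0.01 over all tested genes. Groups did not overlap for *Actrt2*, *Ccin* and *Actl7b*, 3 of 10, against 3.64% of tested genes with every KO library above every WT library.

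*Actrt2* stood at 3.17, 1.25, 1.34 and 1.74 CPM in WT and at 6.47, 30.6, 14.4 and 4.83 CPM in KO (2.91 ± 0.65, log2, adjusted p = 0.026). *Ccin* stood at 1.97, 0.669, 1.57 and 1.69 CPM in WT and at 3.09, 30.5, 11.4 and 3.15 CPM in KO (3.0 ± 0.65, adjusted p = 0.021). KO_d22_2 was the highest library of the day for both and for the other 8 genes, and KO_d22_3 was the next highest KO library for *Actrt2* and *Ccin*. *Actrt3*, at 1, 1, 1 and 2 counts in WT, had 1, 59, 28 and 3 counts in KO, a mean at least 5.63-fold higher that missed the threshold (adjusted p = 0.069). DESeq2 called it, with *Actrt2* and *Ccin*, and called 421 of the 17170 tested genes higher.

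*Actl7a* stood at 19.7, 9.95, 14.1 and 13.6 CPM in WT and at 17.9, 68.5, 36.6 and 24.3 CPM in KO (1.36 ± 0.52, log2, adjusted p = 0.20). *Capza3* stood at 12.3, 7.69, 8.68 and 8.29 CPM in WT and at 12.6, 39.98, 23.3 and 10.5 CPM in KO (1.23 ± 0.52, adjusted p = 0.26). In both genes KO_d22_2 and KO_d22_3 lay above all WT libraries.
*Cylc2* ranged from 2.76 to 6.27 CPM in WT and stood at 5.08, 26.8, 13.4 and 5.30 CPM in KO (1.59 ± 0.59, adjusted p = 0.18). *Cylc1* ranged from 4.71 to 8.94 CPM in WT and stood at 6.90, 26.9, 12.6 and 5.16 CPM in KO (0.97 ± 0.54, adjusted p = 0.46). *Actrt1* went from 0.716 to 2.11 CPM in WT and from 1.51 to 5.71 CPM in KO (1.07 ± 0.44, adjusted p = 0.23). *Actl7b* and *Actl9* showed the smallest differences, 0.55 ± 0.30 and 0.38 ± 0.19, and in *Actl7b* the excess lay mainly in KO_d22_2 at 159 CPM, with the other 3 KO libraries at 75.6 to 81.2 CPM just above a WT range of 52.6 to 74.6 CPM.

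The round spermatid score was -0.51 to 0.15 in WT and 0.11 to 1.95 in KO at day 22, and the score of 7 elongating spermatid genes (*Tnp1*, *Tnp2*, *Prm1*, *Prm2*, *Oaz3*, *Smcp* and *Odf1*) was -2.60 to -1.14 in WT and -1.19 to 2.83 in KO. KO_d22_2 and KO_d22_3 had the highest values of both. Of the elongating spermatid genes 4 of 7 were called higher in KO, and of the round spermatid genes 0 of 6, all 6 with an unadjusted p under 0.05. The 4 peritubular genes had a median log2 fold change of -0.65, with 3 at an unadjusted p under 0.05 and none called, and scores of -0.04 to 0.54 in WT and -0.94 to 0.05 in KO. The part of these lists in the result was not tested. With the stage score as a covariate 0 genes were called at day 22. Without KO_d22_2, WT_d22_2, WT_d22_3 or WT_d22_4 the count also fell from 2 to 0. Over the 24 such fits the values ran from 2.19 to 3.28 for *Actrt2* and from 1.96 to 3.32 for *Ccin*. A fit of the day 22 libraries alone called 0 of the 9 genes it kept, with 2.92 for *Actrt2* (adjusted p = 0.11) and 3.01 for *Ccin* (adjusted p = 0.15). Of all its 15739 genes it called 9 higher and 60 lower.

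**Figure D4:**
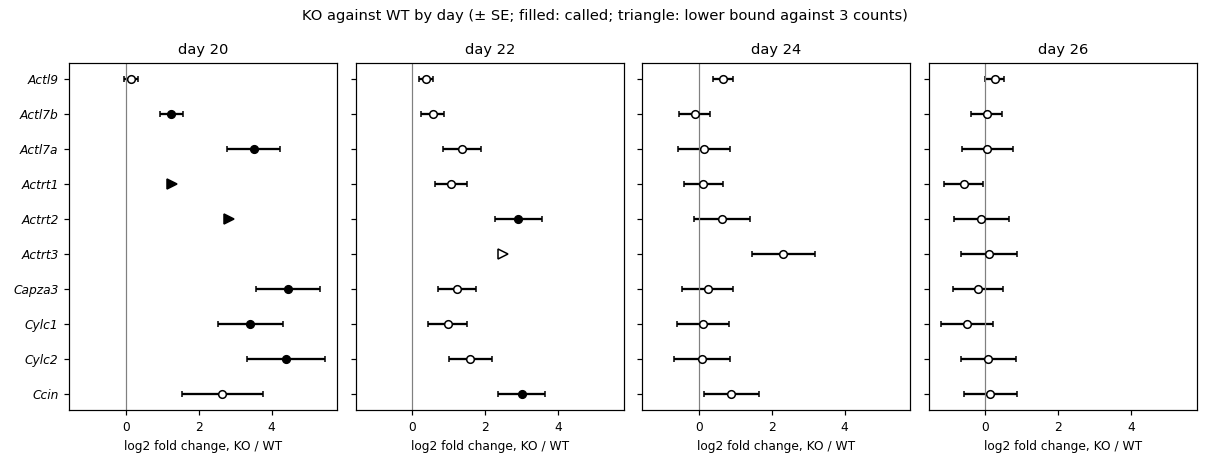
Log2 fold change of KO against WT with its SE for each gene at days 20, 22, 24 and 26, filled where called by edgeR. Triangles mark lower bounds against 3 counts where the WT group was at the floor, and *Actrt3* at day 20 is not drawn; 7 genes were called at day 20, 2 at day 22 and none at days 24 and 26.

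At day 24 none of the 10 genes was called by edgeR or by DESeq2. Of all tested genes 0.0874% were called in either direction by edgeR, and 40 of 17170 by DESeq2. In edgeR 2 of the 10 had an unadjusted p under 0.05, as did 898 of the 17170 tested genes. Every KO library was above every WT library for 4 genes, with 22.6% of tested genes doing so with 2 libraries a group. These 4 were *Actl9*, *Actrt2*, *Actrt3* and *Ccin*. *Actrt3* stood at 1.80 and 2.85 CPM in WT and at 16.1 and 7.06 CPM in KO (2.31 ± 0.86, log2, adjusted p = 0.72). *Ccin* stood at 22.9 and 22.2 CPM in WT and at 48.4 and 35.6 CPM in KO (0.90 ± 0.75), and *Actrt2* at 34.3 and 28.0 CPM against 59.3 and 37.5 CPM (0.64 ± 0.76). *Actl9* stood at 54.1 and 50.6 CPM in WT and at 89.8 and 75.8 CPM in KO (0.66 ± 0.26, adjusted p = 0.76).

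The other 6 genes overlapped between genotypes at this age. *Actl7a* stood at 78.8 and 60.5 CPM in WT and 80.5 and 72.9 CPM in KO, a log2 difference of 0.14 ± 0.70. *Capza3*, *Cylc1*, *Cylc2*, *Actrt1* and *Actl7b* differed by -0.11 to 0.24, with SEs of 0.43 to 0.77. The round spermatid score was 2.18 and 1.70 in WT and 1.92 and 1.97 in KO, and the elongating spermatid score was 2.28 and 2.29 in WT and 4.29 and 3.29 in KO. The Leydig score was -0.41 and 0.04 in WT and 0.68 and 0.74 in KO, and the peritubular score -0.03 and 0.26 in WT and -0.09 and -0.16 in KO, and the part of these lists was not tested. With the stage score as a covariate *Actrt3* was called (2.22, adjusted p = 0.048), where 15 of the 17170 tested genes were called higher. Leaving out any 1 library left 0 genes called.

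A ratio of 2 genes counted in the same library shows the order of the genes without library scaling. *Ccin* counts were 0.100, 0.067, 0.112 and 0.124 of those of *Actl7a* in WT at day 22 and 0.173, 0.446, 0.312 and 0.129 in KO. At day 24 the ratio was 0.291 and 0.367 in WT and 0.600 and 0.488 in KO. At day 26 it was 0.681 and 0.619 in WT and 0.711 and 0.666 in KO. At day 20, among libraries with at least 20 counts of *Actl7a*, it was 0.167 in WT_d20_4 and 0.217, 0.0647 and 0.167 in KO_d20_1, KO_d20_3 and KO_d20_4. The KO values lay above the WT values without overlap at days 22 and 24, overlapped with them at day 26 and lay on both sides of the single WT value at day 20. At day 22 the ratio of *Actrt2* to *Actl7a* also did not overlap, at 0.095 to 0.161 in WT and 0.198 to 0.446 in KO. The ratio of *Capza3* to *Actl7a* did overlap, at 0.609 to 0.773 in WT and 0.433 to 0.708 in KO, as did that of *Actrt1* to *Actl7a*. These ratios were chosen after the values had been seen and were not tested.

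At day 26 none of the 10 genes was called by edgeR or by DESeq2. Of all tested genes 0.0466% were called in either direction by edgeR, and 153 of 17170 by DESeq2. In edgeR none of the 10 had an unadjusted p under 0.05, while 1979 of the 17170 tested genes did. The X-linked members were the lowest of the 10 relative to WT. *Actrt1* stood at 14.6 and 14.3 CPM in WT and at 8.74 and 10.4 CPM in KO (-0.60 ± 0.53, log2, adjusted p = 0.70). *Cylc1* stood at 63.3 and 60.2 CPM in WT and at 45.6 and 41.1 CPM in KO (-0.51 ± 0.71, adjusted p = 0.83). The KO libraries lay below the WT libraries for both, and also for *Capza3*, at 105 and 97.2 CPM in KO against 124 and 107 CPM in WT (-0.19 ± 0.69). That is 3 of 10, and 31.1% of tested genes had every KO library below every WT library. In a fit of the 4 libraries of day 26 alone, in which the spread comes from this day, *Actrt1* (-0.58, adjusted p = 0.040) and *Cylc1* (-0.50, adjusted p = 0.013) were called lower, as were 5.27% of the genes tested in it.

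The autosomal members differed by -0.19 to 0.26 at day 26. *Actl9* (125 and 116 CPM in WT, 143 and 146 CPM in KO), *Ccin* (94.7 and 87.5 CPM, 99.6 and 101 CPM) and *Cylc2* (38.8 and 41.1 CPM, 43.4 and 41.1 CPM) were higher in KO without overlap, which 27.8% of tested genes were, and *Cylc2* by a margin that rounding hides. *Actl7a*, *Actl7b*, *Actrt2* and *Actrt3* overlapped, for example *Actl7a* at 139 and 141 CPM in WT and 140 and 151 CPM in KO. The cylicins occur together in the calyx but are encoded on different chromosomes. The counts of *Cylc1* were 1.63 and 1.46 times those of *Cylc2* in the WT libraries and 1.05 and 1.0 times in the KO libraries. At day 24 the same ratio was 1.05 and 1.28 in WT and 1.30 and 1.01 in KO, and at day 22 it was 1.43, 2.48, 1.66 and 1.15 in WT and 1.36, 1.0, 0.941 and 0.975 in KO. The KO values lay below the WT values without overlap at day 26 and overlapped with them at days 22 and 24. This ratio was chosen after its values had been seen and was not tested. Among other marker lists at day 26, pachytene genes scored 0.21 and 0.39 in WT and 0.68 and 0.75 in KO, round spermatid genes 2.69 and 2.82 in WT and 2.73 and 2.83 in KO, and elongating spermatid genes 5.17 and 4.56 in WT and 5.32 and 5.32 in KO. Spermatogonial genes scored -0.21 and -0.19 in WT and -0.41 and -0.36 in KO, Sertoli cell genes -0.28 and -0.34 in WT and -0.47 and -0.51 in KO, peritubular genes -0.03 and -0.36 in WT and -0.63 and -0.83 in KO, and Leydig cell genes 1.53 and 0.73 in WT and 0.80 and 0.48 in KO. The KO libraries thus lay above WT for the pachytene and elongating spermatid lists and below it for the spermatogonial, Sertoli and peritubular lists. The part of these lists in the day 26 values was not tested.

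**Figure D5:**
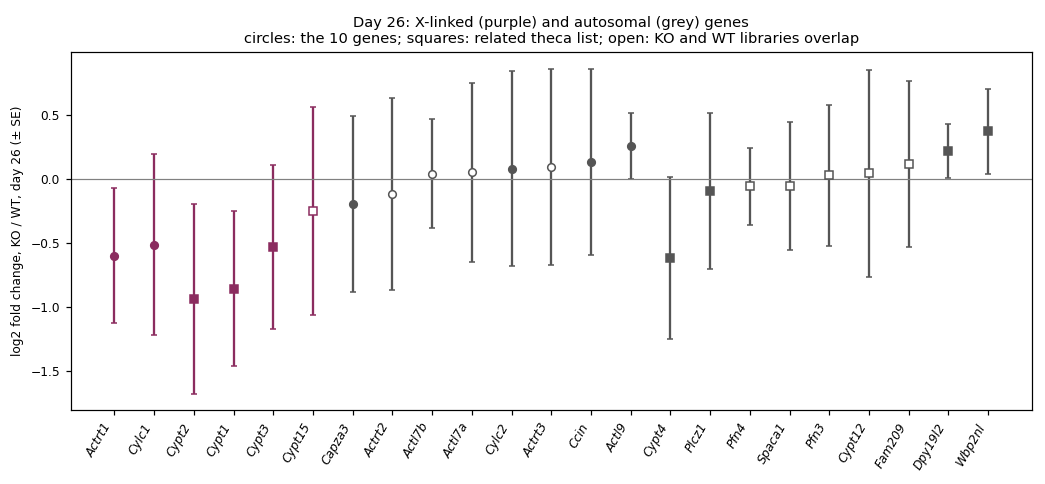
Log2 fold change of KO against WT at day 26 with its SE, for the 10 genes (circles) and 13 related genes of the theca (squares), with X-linked genes in purple and autosomal genes in grey, and open symbols where KO and WT libraries overlap. The 6 X-linked genes all lie below 0, from -0.93 to -0.25, and none was called in the fit of all libraries. The autosomal genes run from -0.62 (*Cypt4*) to 0.37 (*Wbp2nl*), and the median over all tested genes was -0.04. Other X-linked genes were not examined here.

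Over the mean of the 4 daily differences, which reuses the libraries of the daily comparisons, *Actl7a* (1.26 ± 0.34, log2, adjusted p = 0.033), *Capza3* (1.43 ± 0.37, adjusted p = 0.029), *Ccin* (1.67 ± 0.41, adjusted p = 0.026), *Cylc2* (1.54 ± 0.43, adjusted p = 0.037) and *Actrt2* (adjusted p = 0.016) were higher in KO. These are 5 of 10, with 3.52% of tested genes called higher. DESeq2 called 8 of the 10, and 1073 of the 17170 tested genes higher. With no low-count filter edgeR called 3 (*Actl7a* and *Cylc2* were lost). With the stage score as a covariate 0 were called, with 0.20 for *Actl7a*, 0.34 for *Capza3*, 0.28 for *Ccin* and 0.15 for *Cylc2*. Of the 17170 tested genes that fit called 46 higher and 200 lower over the mean. Marker lists moved with this mean: 5 of 6 round spermatid and 6 of 7 elongating spermatid genes were called higher, as was 1 of 5 Leydig genes (*Insl3*, 0.78), and 2 of 4 peritubular genes were called lower (*Acta2*, -0.42, and *Myh11*, -0.53). Their part in the mean was not tested. Leaving out 1 library moved the count to 0 without WT_d24_2, to 1 without KO_d24_1, WT_d26_1, WT_d26_2 or KO_d26_2, to 2 without WT_d20_3, KO_d24_2 or KO_d26_1, to 3 without WT_d20_2, KO_d20_3, KO_d20_4, WT_d22_3, WT_d22_4 or WT_d24_1, to 8 without KO_d22_1 and to 9 without KO_d20_2. Tested jointly over the days, a difference of the KO effect between days was called for 0 of the 10 in edgeR, with adjusted p from 0.34 to 0.94, and for 0.00582% of all tested genes. At an unadjusted p under 0.05 there were 7, against 1556 of the 17170 tested genes. A larger effect at day 20 than at day 26 was thus not shown for any of these genes by this test. Without KO_d20_2 the test called 1 gene, *Capza3*.

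Within KO testes all 10 genes were higher at day 26 than at day 20 (27.2% of tested genes were called higher), by 2.64 ± 0.22 for *Actl9* to 7.58 ± 0.94 for *Actrt3*, with a median of 3.96. *Ccin* (6.23) and *Actrt2* (5.57) came next below *Actrt3*, and *Actl7a*, *Actl7b*, *Actrt1*, *Capza3*, *Cylc1* and *Cylc2* were higher by 2.67 (*Actl7b*) to 4.2 (*Capza3*). *Actrt3* reached a mean of 24.2 CPM at day 26 from 0.118 CPM at day 20. From day 20 to day 22 all 10 were called higher in KO, by 0.81 (*Actl9*) to 3.50 (*Actrt3*), where 7.37% of tested genes were, but 0 without KO_d20_1, KO_d20_2 or KO_d22_2. The first 2 of these libraries were the lowest of day 20 for most of the genes and the third the highest of day 22. From day 22 to day 24 only *Actl9* was called (1.03 ± 0.22, adjusted p = 0.043), with 0.402% of tested genes called higher, the other 9 differed by 0.56 (*Actl7b*) to 3.01 (*Actrt3*), and this count became 0 or 5 in 21 of the 24 fits that left out 1 library. In WT the day 26 against day 20 calls numbered 10 of 10 whichever library was left out, and in KO likewise.

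Of a list of 14 other genes of the theca and acrosome attachment 13 were tested, and no test set them against the 10 genes. At day 20, 4 were higher in KO (2.98% of tested genes were): *Spaca1*, an acrosomal membrane protein (means of 2.46 CPM in WT and 9.69 in KO, 1.97 ± 0.43 log2, adjusted p = 0.015), *Plcz1*, the sperm phospholipase that activates the egg (2.21 and 10.6 CPM, 2.30 ± 0.55, adjusted p = 0.024), *Fam209* (0.515 and 5.18 CPM, 3.38 ± 0.72, adjusted p = 0.014) and *Cypt4*, of the cysteine-rich perinuclear theca family (adjusted p = 0.030). At day 22, 2 were higher (1.26% of tested genes were): *Wbp2nl*, a postacrosomal theca protein (means of 1.84 CPM in WT and 4.43 in KO, 1.27 ± 0.28, adjusted p = 0.022), and *Cypt4* (1.86 and 7.53 CPM, 2.04 ± 0.53, adjusted p = 0.048). The median log2 fold change of the 13 was 2.58 at day 20 (1.97 over 11 genes with those at the floor set to their bounds) and 1.27 at day 22, and edgeR called 0 at days 24 and 26 (1 and 0 had an unadjusted p under 0.05). DESeq2 called 9, 3, 1 and 0 of the 13 at days 20, 22, 24 and 26, against 901, 749, 40 and 153 of the 17170 tested genes in either direction. Over the mean of the 4 days 6 of the 13 were called higher, *Cypt3*, *Cypt4*, *Cypt12*, *Fam209*, *Pfn3* and *Wbp2nl* (3.52% of tested genes were). *Dpy19l2*, the inner nuclear membrane protein that anchors the acrosome, was abundant throughout and was not called at day 20 (0.46 ± 0.15, adjusted p = 0.11), nor was *Pfn4*, a testis profilin (0.20 ± 0.22, adjusted p = 0.81). At day 26, 3 of the 4 X-linked *Cypt* genes were below WT without overlap, as were *Cypt4* on chromosome 9 and *Plcz1* (means of 135.9 CPM in KO and 144.6 CPM in WT). That is 5 of the 13, against 31.1% of tested genes. *Wbp2nl* (1.30-fold) and *Dpy19l2* (1.17-fold) were above WT without overlap, 2 of 13 against 27.8%. At day 24, 7 of the 13 had every KO library above every WT library, against 22.6% of tested genes, and none lay wholly below. *Cypt* genes resemble each other closely, and pairs with several alignments were discarded, so their counts are uncertain.

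Of a list of 18 general actin, actin-like and capping genes 17 were tested, and 2 were higher in KO at day 20 (2.98% of tested genes were), both of them actin-like genes with a rise over the wave: *Actl11* (means of 0.375 CPM in WT and 5.33 in KO, 3.74 ± 0.90 log2, adjusted p = 0.025) and *Actl10* (0.776 and 2.08 CPM, 1.45 ± 0.38, adjusted p = 0.036). At day 22 *Actl11* stood at means of 7.02 CPM in WT and 27.7 CPM in KO without overlap, but was not called (1.97 ± 0.58, adjusted p = 0.080). The median log2 fold change of the 17 was 0.02 at day 20, and no test set this list against the 10 genes. *Actb*, the cytoplasmic beta-actin, stood at a mean of 1299 CPM in WT and 1144 CPM in KO (-0.18 ± 0.12, adjusted p = 0.63). *Capza1*, the general alpha subunit that *Capza3* replaces in spermatids, stood at 253 and 278 CPM (0.14 ± 0.11, adjusted p = 0.72), and *Capzb*, the beta subunit, at 131 and 123 CPM (-0.09 ± 0.14, adjusted p = 0.89). From day 20 to day 26, 4 of the 17 were called higher and 2 lower in WT (24.4% and 18.1% of tested genes were), and 8 higher and 4 lower in KO (27.2% and 24.9%). *Actl11* rose by 8.30 in WT and 5.02 in KO, and *Capza2* fell by 0.63 in WT and 0.71 in KO. At days 22, 24 and 26 edgeR called 0 of the 17, while 2, 0 and 4 had an unadjusted p under 0.05 and DESeq2 called 0, 0 and 1, and the same pair, *Actl10* and *Actl11*, was called over the mean of the days (3.52% of tested genes were). *Actb* has processed copies in the genome, and its count is uncertain for the same reason.

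For each of the 10, the gene whose level ran closest to it over the 24 libraries is named here. The measure was Pearson's r of log2 CPM, given as a description over libraries that share the 4 ages. *Actl7a* ran with *Lpcat2b* (r = 0.999), *Capza3* with *Stat4* (0.997), *Cylc2* with *Pdilt* (0.997), *Actrt2* with *Adam6a* (0.996), *Cylc1* with *Fam122c* (0.996), *Actrt3* with *4931408C20Rik* (0.995), *Actl7b* with *Tssk1* (0.993), *Ccin* with *Hspa1l* (0.992), *Actrt1* with *Izumo1* (0.988) and *Actl9* with *1700019N19Rik* (0.984). *Tssk1* and *Izumo1* are among the round spermatid markers. Between the 10 genes themselves the 45 values of r ran from 0.822 to 0.995 with a median of 0.954.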

How the data were processed

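Whole-testis total RNA of 24 libraries was measured by strand-specific sequencing. The authors aligned read pairs to mm10 with STAR (2.7.11b in the submitters' processing notes) and counted pairs in exons with HTSeq. The deposited unit is counts, with 1 raw table by gene symbol for each library, and pairs with several alignments were discarded. The annotation version was not given in the sources used here. Unassigned pairs (45.1% to 58.5% without a feature) stayed out of library sizes and tests. Groups and replicate numbers came from the sample labels, and the text of the study gives fewer day 20 replicates than the labels.

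CPM were scaled by TMM. Genes were kept by filterByExpr (minimum count 10), and 1 robust quasi-likelihood fit of edgeR 4.0.16 (R 4.3.3, limma 3.58.1) took in all 24 libraries with 8 group coefficients, so that days with 2 libraries a group share the spread of the others. Tests were two-sided with Benjamini-Hochberg adjustment over 17170 genes, and a gene was called at an adjusted p under 0.05. The daily contrasts, their mean and the age contrasts share libraries. The fit was also run on simulated counts, and the outcome is not printed here. Alternatives were DESeq2 1.42.0, DESeq2 size factors, no filter, a stage covariate, each day alone, a replicate block and each library left out, and shares of the day 26 level without WT_d20_2 were added after seeing the data. The rule for named genes took all 10 in every comparison (some are printed within a range), of the related lists the genes called in KO comparisons and up to 6 of the most abundant, and for each of the 10 the most similar genes, of which the closest is printed. The 10 genes and all lists were chosen with earlier results of these data known.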

Additional observations from a re-analysis of the deposited data

Results flagged for a closer look

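Within groups of 4 libraries, 1 library stood far from the other 3 in 4 of the 36 combinations of gene and group examined by Dixon's ratio, of which chance flags about 1 in 20. WT_d20_4 was the highest WT library of day 20 for *Actl7a* at 1.73 CPM, for *Capza3* at 0.720 CPM and for *Cylc1* at 0.936 CPM. KO_d22_2 was the highest KO library of day 22 for *Actl7b* at 159 CPM. WT_d20_4 also had the highest round spermatid score of its group (-3.05, against -4.11 or less in the other 3), and KO_d22_2 that of its group (1.95, against 1.03 or less). The cause was not tested.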

How the results depend on the processing

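DESeq2 size factors in edgeR moved none of the counts against WT by over 1.5 times, but called 1 gene (*Actl9*) for day 26 against day 24 in WT, where TMM gave 0. For the mean of the 4 days the count of 5 became 3 with no low-count filter and 8 with DESeq2. With the stage score covariate 0 genes were called at day 20, at day 22, over the mean of the days and for day 26 against day 20 in WT, 5 for day 26 against day 20 in KO, and 1 at day 24. For day 26 against day 20 that fit called 0 of the 17170 tested genes in WT, and 1154 higher in KO. The stage score tracks age closely, so the age contrasts lose most of their range in this fit. It also ran with genotype at days 20 and 22, where this fit separates stage from genotype poorly. With each day fitted alone 0 genes were called at days 20 and 22 and 2 at day 26. Same-numbered KO and WT deviations correlated at 0.0705 to 0.41 at day 20, 0.39 at day 24 and 0.416 at day 26, but at -0.459 to -0.0254 at day 22. Replicate numbers thus gave no pairing that held on every day, and whether libraries were paired is not known. The replicate block took the 26 calls between neighbouring days to 16, and of these the 7 from day 22 to day 24 in WT to 2 (*Actrt2* and *Ccin*) and the 1 in KO to 0. At day 20 it called 6 of the 7, without *Actrt1*. At day 22 it called 2 genes, but with *Actrt3* in place of *Ccin* (2.41, adjusted p = 0.058). Leaving out 1 library gave 0 to 7 calls at day 20, 0 to 3 at day 22, 0 to 9 over the mean, 0 to 1 for the difference between days and 15 to 31 between neighbouring days.

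Under the stage score covariate the log2 fold change of KO against WT changed sign for *Actl9* (-0.34) and *Ccin* (-1.48) at day 20, *Capza3* (-0.19), *Cylc1* (-0.46) and *Cylc2* (-0.24) at day 22, *Actrt2* (0.50) and *Capza3* (0.29) at day 26 and *Cylc1* over the mean (-0.039), as did the WT age change of *Cylc2* (-0.56). None of these was called in that fit, and the cause was not tested. Leaving out 1 library turned the sign of uncalled changes near 0: at day 24 for *Actl7a* (-0.023 to 0.34), *Actl7b* (-0.25 to 0.067), *Actrt1* (-0.23 to 0.65), *Cylc1* (-0.089 to 0.35) and *Cylc2* (-0.22 to 0.50), at day 26 for *Actl7b* (-0.067 to 0.17), *Actrt2* (-0.30 to 0.11) and *Actrt3* (-0.19 to 0.46), and at day 20 for *Actl9* (-0.0011 to 0.28). Depth limits *Actrt1*, *Actrt2* and *Actrt3* in WT at day 20, where 3 counts are the floor.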
